A study of Mus musculus with 6 samples.

Results

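The heat shock protein and co-chaperone genes of the mouse arcuate nucleus (ARC) were described in mice on a normal chow diet (NCD) and a high-fat diet (HFD). They were chosen by name alone: every gene of the deposited table with a mouse symbol starting with *Hspa*, *Hspb*, *Hspd*, *Hspe*, *Hsph*, *Hsp90*, *Dnaja*, *Dnajb* or *Dnajc*, together with *Hsf1* and *Hsf2*. This gave 76 of the 22322 genes. By their known roles, 2 encode heat shock factors, 8 cytosolic HSP70 proteins, 3 HSP110 proteins, 2 cytosolic HSP90 proteins and 7 small heat shock proteins. The J-domain co-chaperones of classes A and B in the cytosol number 12, and 15 class C J-domain proteins act outside the organelles grouped separately. Another 10 members act in mitochondria and 14 in the endoplasmic reticulum (ER). The last 3, *Hspbp1*, *Hspbap1* and *Hspb11*, share the prefix but are not heat shock proteins.

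The ARC is a hypothalamic nucleus beside the third ventricle whose neurons control feeding, growth hormone and reproduction. Male mice were given NCD (16.5% fat) or HFD (60% fat) from 4 weeks of age for 16 weeks, a feeding model of diet-induced obesity, and the labels name no other difference between the groups. The study's methods list C57BL/6J wild-type mice and a *Kiss1*-Cre line crossed to an R26R-EYFP reporter, by which *Kiss1* neurons were located, and do not say which of them gave the sequenced samples. ARC tissue was cut from frozen sections with a laser, and 3 samples per diet were sequenced (NCD1 to NCD3 and HFD1 to HFD3), without a statement of whether a sample was 1 mouse or several. The libraries held 15925648, 9937632 and 6882449 counts on NCD and 8024664, 10479778 and 5171381 counts on HFD. ARC neuron markers were present in every library: *Pomc*, a peptide precursor of neurons that restrain feeding, had a mean FPKM of 667, and *Agrp*, the marker of the opposing neurons, had 72.5. Of 15 ARC neuron markers, 11 had a higher and 4 a lower fitted level on HFD. An unadjusted edgeR p under 0.05 was found for 2, both higher, against 2.30% of all genes. General neuron markers were split 6 higher and 4 lower, and ependymal markers 4 and 4. All 5 red blood cell markers had a lower fitted level, and no marker of these 3 lists had a p under 0.05. *Avp*, the vasopressin gene of neighbouring nuclei, had a mean FPKM of 3475, and the source of its RNA was not tested. The *Avp* level was lower on HFD (edgeR p of 0.000192, adjusted p 0.194). It was 2382, 4888 and 1961 CPM (counts scaled to the normalised library total) on NCD and 1048, 944 and 830.3 CPM on HFD, with no overlap. Each sample mixed all cell types of the cut area, and fewer cells of a type and less RNA per cell cannot be told apart in such data.

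Heat shock proteins are molecular chaperones, which keep other proteins folded or help to refold or degrade them. HSP70 proteins bind unfolded stretches in cycles of ATP use, J-domain proteins bring them substrates and start the ATP step, and HSP110 proteins exchange the nucleotide. HSP90 acts later, on signalling proteins such as steroid receptors and kinases, and small heat shock proteins hold unfolding proteins without using ATP. Under heat or other protein stress the factor HSF1 switches on a large part of these genes, but neurons also carry high constitutive levels, in particular of HSC70, the product of *Hspa8*. The ER members respond to a separate pathway, the unfolded protein response.

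The DNA words read by these pathways were searched in the promoters of the members, taken from 250 bases before to 50 bases after each RefSeq transcription start (GRCm38.p6). Of the 76 members, 61 had such a promoter entry. Members without an entry could not be searched, among them *Hspa8*, *Hsp90aa1*, *Hsp90ab1*, *Hspa9* and *Hsf1*. A heat shock element of 2 units, GAANNTTC or TTCNNGAA, was found on either strand in 16 of the 61 members (26.2%), against 17.0% of 27025 genes with an entry. Among the members on a list of typical HSF1 response genes, 9 of 12 (75.0%) had it. Genes are on that list for a known response to HSF1, so this share is not independent of the choice. A run of 3 units, in which GAANNTTC is followed by NNGAA or TTCNNGAA by NNTTC and which therefore also holds the shorter word, was found in 4 members (6.56%): *Hspd1*, *Hspe1*, *Hsph1* and *Dnajb6*. It occurred in 0.662% of all genes. These matches are words in a window and not measured binding sites.

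The sequences below are shown because *Hspb1* was 1 of 2 members with an unadjusted p under 0.05 between the diets, *Hspa1a* and *Hspa1b* are near-identical copies, and *Hspd1* and *Hspe1* hold the same stretch of DNA in their promoter windows. Capitals mark the heat shock element words, and each sequence runs 5′ to 3′ on the strand of its gene.
Hspb1: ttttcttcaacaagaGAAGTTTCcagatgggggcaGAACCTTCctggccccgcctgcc
Hspa1a: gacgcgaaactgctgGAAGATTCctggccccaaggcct
Hspa1b: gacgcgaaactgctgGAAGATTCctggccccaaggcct
Hspd1: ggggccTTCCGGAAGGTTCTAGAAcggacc
Hspe1: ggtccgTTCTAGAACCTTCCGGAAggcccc

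The *Hspb1* stretch lies at chr5:135887787-135887844 on the plus strand, at positions -132 to -75 from the start, where GENCODE M21 annotates no gene. The *Hspa1a* stretch (chr17:34972238-34972275) and the *Hspa1b* stretch (chr17:34959320-34959357) are on the minus strand, both at positions -119 to -82 and both outside annotated genes. The *Hspd1* and *Hspe1* lines are the same bases, chr1:55088053-55088082, read on opposite strands of the divergent gene pair. *Hspd1* has 2 RefSeq starts. The stretch lies at positions -150 to -121 from the start nearer to its coding sequence and at -95 to -66 from the *Hspe1* start, and it falls inside the *Hspd1* transcript that begins at the farther start, where GENCODE M21 annotates an untranslated exon. *Dnajb1*, the other member with an unadjusted p under 0.05, held neither heat shock word in the windows of its 2 RefSeq starts.

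For the ER members the word was the ER stress element, CCAAT and CCACG separated by 9 bases. Among the 12 ER members with a promoter entry 3 had it (25.0%), *Hspa5*, *Hsp90b1* and *Dnajc3*, against 0.137% of all genes. In these lines capitals mark that word, which *Hsp90b1* carries here on the opposite strand. The *Hsp90b1* window also holds a match on the strand of the gene, farther from the start, that is not printed.
Hspa5: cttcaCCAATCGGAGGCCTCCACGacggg
Hsp90b1: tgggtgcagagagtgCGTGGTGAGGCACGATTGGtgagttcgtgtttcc
Dnajc3: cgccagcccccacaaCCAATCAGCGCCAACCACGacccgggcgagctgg

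The *Hspa5* stretch is chr2:34772020-34772048 on the plus strand, within an annotated untranslated exon of *Hspa5* in GENCODE M21. Those of *Hsp90b1* (chr10:86705518-86705566, minus strand) and *Dnajc3* (chr14:118937812-118937860, plus strand) lie outside annotated genes.

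In both diets the members were dominated by a few abundant chaperones. All members together took between 1.60% and 1.80% of the counts of a library. Levels between genes were compared by FPKM, which is per length of transcript. *Hspa8* had the highest mean FPKM over the 6 libraries (1686), followed by the HSP90 genes *Hsp90aa1* (1607) and *Hsp90ab1* (1059.6). *Hspe1*, the mitochondrial HSP10, had 372 and *Hspa5*, the ER HSP70 known as BiP, had 333. The first 4 genes held 61.0% of the summed member FPKM of 7751, and the first 10 held 78.2%. A mean FPKM of at least 100 was found for 11 members, 44 lay between 10 and 100, and 21 lay under 10. The median member had a mean FPKM of 21.5, against 9.34 for all genes tested.

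**Figure D1:**
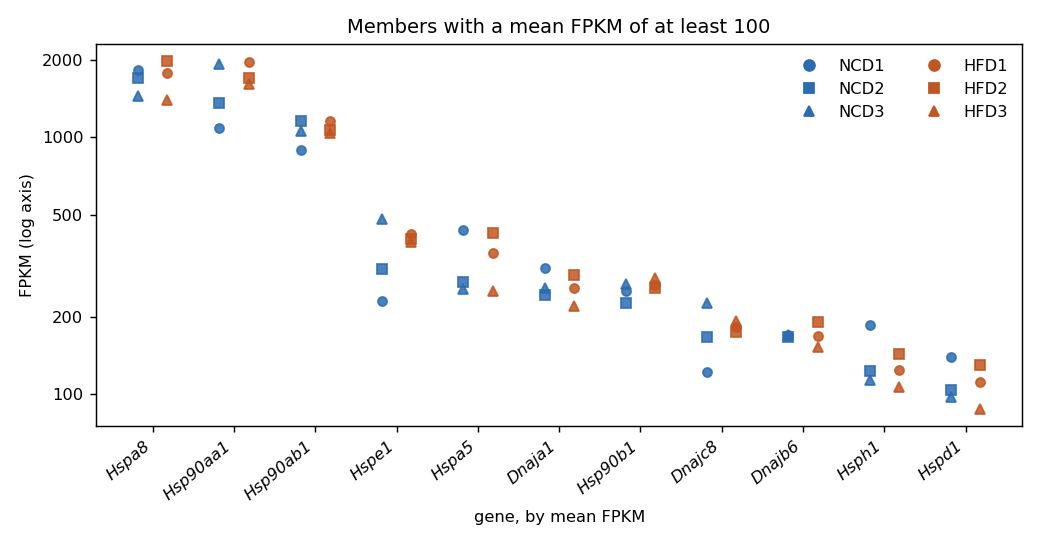
FPKM on a log axis of the 11 members with a mean FPKM of at least 100, ordered by that mean, with 1 point per library (blue NCD, orange HFD). The points of the 2 diets overlap for each of the 11 genes, and NCD1 is the lowest library for Hsp90aa1 and Hspe1 but the highest NCD library for Hspa5, Hsph1 and Hspd1.

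Neighbours in that order were not all separated by their spread. *Hspa8* ranged from 1391 to 1969 FPKM and *Hsp90aa1* from 1087 to 1961, so these ranges overlapped, and *Hsp90ab1*, from 887 to 1155, overlapped with *Hsp90aa1* only. *Hspe1* (231 to 481) and *Hspa5* (252 to 436) also overlapped. The gap between *Hsp90ab1* and *Hspe1* was larger than the range of either. At the other end, *Dnajb8*, *Dnajc5g* and *Hspb9* had no count in any library, which allows up to 0.181 CPM in the deepest library and 0.564 CPM in the shallowest, 3 counts being taken as the limit. *Hspb7* and *Dnajc5b* had 1 count each over all libraries. The other 3 members that did not pass the filter on low counts had 2 to 15 counts per library (*Dnajb7*), 5 to 19 (*Hspb2*) and 0 to 4 (*Dnajc22*).

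Between the diets *Dnajb1* was lower and *Hspb1* higher on HFD at an unadjusted p under 0.05, and the median of the chaperone genes was near 0. Of the 76 members, 68 passed the filter on low counts, and 37 of these had a higher and 31 a lower fitted level on HFD. Their median log2 fold change (HFD against NCD) was 0.03, beside 0.00 for all 14188 genes tested. In edgeR's quasi-likelihood test 2 of 68 members (2.94%) had an unadjusted p under 0.05, against 2.30% of all genes. The member that was lower stands beside a share of 1.09% of all genes lower at that p, and the member that was higher beside 1.21%. After Benjamini-Hochberg adjustment over all genes no member passed 0.05, with the lowest adjusted p of edgeR at 0.999, against 0.0564% of all genes (8 genes). DESeq2 also gave 2 members with an unadjusted p under 0.05 and 0 after adjustment. The CPM of the diets did not overlap for 5 of the 68 members tested (7.35%), against 6.47% of all genes tested. Both shares of members were thus near those of all genes.

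The differences were small for most members. The absolute log2 fold change was under 0.2 in 45 of the 68 and under 0.4 in 63, with a median standard error of 0.23. A difference of the size of that error in a single gene was not detectable with 3 libraries per diet.

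**Figure D2:**
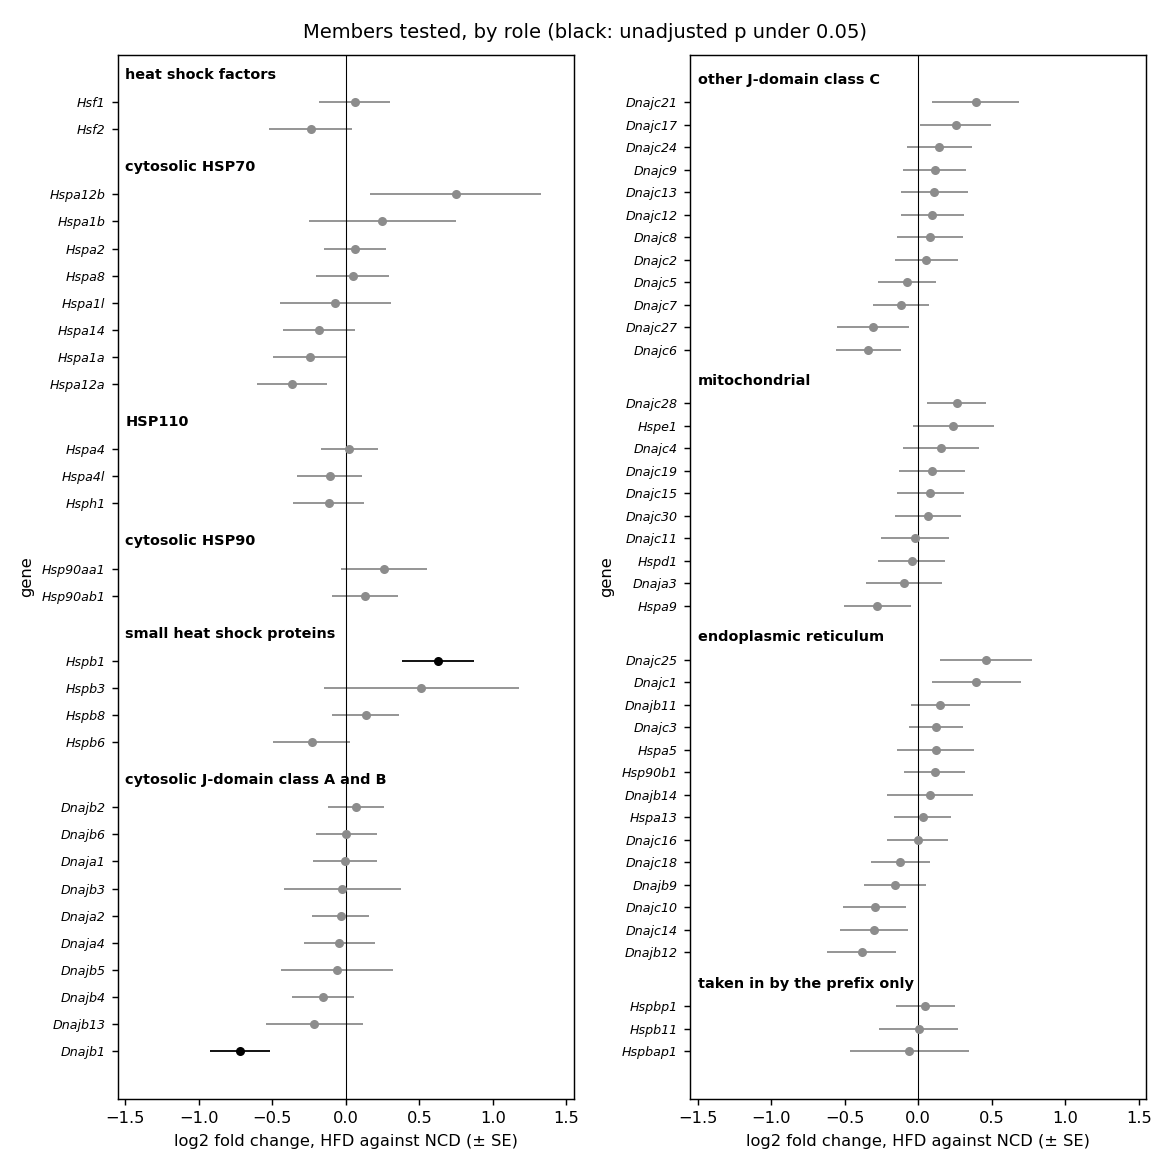
Log2 fold change of HFD against NCD with its standard error for the 68 members tested, grouped by role and ordered by fold within a role. Dnajb1 (-0.72) and Hspb1 (0.63) are drawn in black for an unadjusted p under 0.05, and the widest bars belong to the scarce genes Hspb3 and Hspa12b.

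*Dnajb1* encodes HSP40, the main stress-inducible partner of cytosolic HSP70. The gene lies at chr8:83608193-83612653 on the plus strand. Its level was 152, 149 and 172 CPM in NCD1 to NCD3 and 105, 106 and 76.6 CPM in HFD1 to HFD3. Every HFD library was below every NCD library, and HFD3, the shallowest library, was the lowest. The mean was 158 ± 12.9 CPM (SD, n = 3) on NCD and 95.6 ± 16.4 CPM (SD, n = 3) on HFD. The log2 fold change was -0.72 (SE 0.20), with an edgeR p of 0.0040 and an adjusted p of 0.999. The exact permutation test on log2 CPM gave p = 0.1, the smallest that 3 against 3 samples allow. None of the 100-base words of its longest transcript occurs in another gene's transcripts.

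For the inducible HSP70 genes, whose products DNAJB1 serves, the diets overlapped. *Hspa1a* had 47.3, 30.4 and 37.0 CPM on NCD and 30.1, 41.9 and 24.6 CPM on HFD (log2 fold change -0.24, SE 0.25). *Hspa1b* had 2.11, 3.26 and 8.58 CPM on NCD and 6.34, 3.75 and 6.02 CPM on HFD. For *Hspa1a*, 47.1% of the 100-base words of its transcript also occur in *Hspa1b*, so the division of reads between the copies is uncertain. Whether these genes differed from *Dnajb1* was not tested.

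As a sum, the immediate early genes, a fast response of neurons to activity, were lower on HFD in the same libraries. Of 24 on a list, 23 had a lower fitted level on HFD, and the median log2 fold change was -1.12. In edgeR 15 of them had an unadjusted p under 0.05, against 1.09% of all genes lower at that p. An adjusted p under 0.05 was found for 7, against 0.0564% of all genes. The summed level of the 24 genes was 847, 1191 and 1076 CPM on NCD and 519, 396 and 609 CPM on HFD. *Jund*, the most abundant of them by FPKM (76.0), was the gene that went the other way, with 95.3, 94.5 and 93.9 CPM on NCD and 195.8, 62.5 and 214 CPM on HFD (log2 fold change 0.73, SE 0.35) and overlapping diets. No gene of the list was at 0 in every library. Single genes such as *Fos*, with 80.2, 149 and 121 CPM on NCD and 16.9, 17.7 and 32.7 CPM on HFD, had larger folds than *Dnajb1*. Of 10 markers of neighbouring hypothalamic nuclei, in which *Avp* led, 3 were lower and 1 higher on HFD at an unadjusted p under 0.05. The shares of all genes at that p were 1.09% lower and 1.21% higher. The sum of these markers was 3527, 6776 and 3426 CPM on NCD and 1923, 3612 and 1662 CPM on HFD, with overlapping diets. The part of either difference in the level of *Dnajb1* was not tested.

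**Figure D3:**
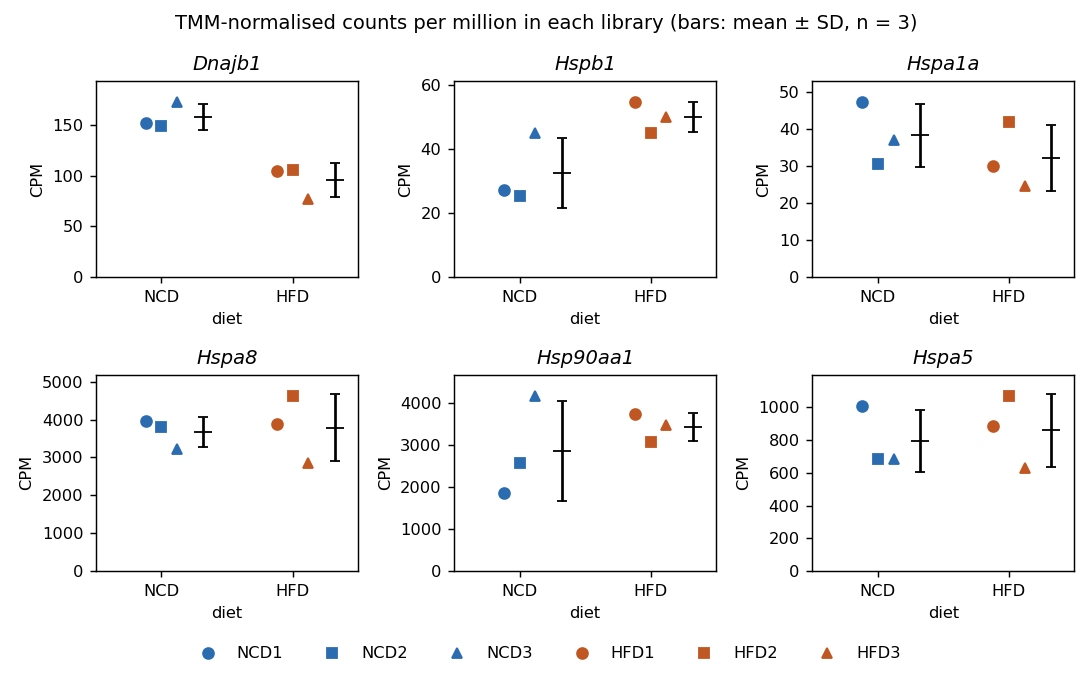
TMM-normalised CPM in each library for Dnajb1, Hspb1, Hspa1a, Hspa8, Hsp90aa1 and Hspa5, with the mean and SD of each diet beside the points and axes from 0. The diets are apart for Dnajb1 (lowest NCD 149, highest HFD 106) and by a narrow gap for Hspb1 (highest NCD 45.0, lowest HFD 45.1), and they overlap in the other 4 panels.

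Among the small heat shock proteins *Hspb1* (HSP25 in mouse, HSP27 in human), a stress-inducible chaperone of astrocytes, vessels and stressed neurons, was higher on HFD. It lies at chr5:135887919-135889563 on the plus strand. Its level was 27.3, 25.3 and 45.0 CPM on NCD and 54.7, 45.1 and 50.05 CPM on HFD. NCD3 lay at the level of HFD2, and the other NCD libraries were far below. The mean was 32.5 ± 10.8 CPM (SD, n = 3) on NCD and 49.96 ± 4.77 CPM (SD, n = 3) on HFD. Its log2 fold change was 0.63 (SE 0.24), with an edgeR p of 0.0242 and an adjusted p of 0.999. Without NCD1 the log2 fold change was 0.50 (edgeR p of 0.0778), without NCD2 0.47 (0.118) and without HFD1 0.55 (0.0882), so the call at 0.05 rested on each of these libraries. Without NCD3 it was 0.93 (edgeR p of 0.000999, adjusted p 0.483). The transcript shares 42.7% of its 100-base words with the pseudogene *Hsp25-ps1*.

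For the other small heat shock proteins tested the diets overlapped. *Hspb8*, which works with BAG3 in the removal of damaged proteins, had 32.3, 27.8 and 20.5 CPM on NCD and 30.2, 26.1 and 32.7 CPM on HFD. *Hspb6* had a log2 fold change of -0.23 (SE 0.26). *Hspb3* was scarce, with 0.301, 1.43 and 1.66 CPM on NCD and 0.994, 1.97 and 1.51 CPM on HFD, and although its log2 fold change of 0.51 was among the 5 highest of the members its SE was 0.66. The log2 fold change of *Hspb3* was -0.04 without NCD1 and 0.22 without HFD2. *Cryab*, the related alpha B crystallin, had 112, 163 and 139 CPM on NCD and 144, 179.7 and 105 CPM on HFD.

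Markers of glial and vascular cells were read beside *Hspb1*. The astrocyte markers summed to 3856, 4338 and 3755 CPM on NCD and 4651, 4402 and 3758 CPM on HFD, 4 of 8 had a higher and 4 a lower fitted level, *Gfap* alone at an unadjusted p under 0.05 (log2 fold change 0.88), and *Aldoc* was the most abundant by FPKM. The microglia markers, in which *C1qb* led, summed to 392, 397 and 313 CPM on NCD and 407, 424 and 392 CPM on HFD, and 4 of 8 were higher, *C1qa* and *C1qb* at an unadjusted p under 0.05. The oligodendrocyte markers, in which *Mbp* led, summed to 3446, 4898 and 3401 CPM on NCD and 2957, 4524 and 3597 CPM on HFD, and 6 of 8 were lower, none at that p. The endothelial markers summed to 463, 492 and 415 CPM on NCD and 484, 507 and 395 CPM on HFD, with *Ly6c1* higher and *Cldn5* lower at that p and *Itm2a* the most abundant of 10. The mural cell markers, in which *Rgs5* led, summed to 258, 234 and 202 CPM on NCD and 211, 228 and 204 CPM on HFD, and 10 of 11 were lower, *Acta2* and *Tagln* at an unadjusted p under 0.05. The tanycyte markers, in which *Gpr50* led, summed to 211, 161 and 229 CPM on NCD and 287, 152 and 365 CPM on HFD, and 7 of 8 were higher, *Col23a1* and *Crym* at that p. Over all genes, 2.30% had an unadjusted edgeR p under 0.05, 1.21% higher and 1.09% lower on HFD. No marker of the 6 lists had an adjusted p under 0.05. The diets overlapped in each of these 6 sums, and no marker of the 6 lists was at 0 in every library. The part of these cell types, or of any tissue from neighbouring nuclei, in the level of *Hspb1* was not tested.

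*Hsf1*, the master factor of the heat shock response, had 48.8, 29.8 and 29.3 CPM on NCD and 36.4, 41.9 and 34.4 CPM on HFD. *Hsf2*, a related factor that binds the same elements, had 30.0, 43.9 and 70.3 CPM on NCD and 36.0, 46.9 and 38.2 CPM on HFD. The diets overlapped for both, with log2 fold changes of 0.06 (SE 0.24) and -0.24 (SE 0.28). Neither direction was stable to the loss of 1 library: *Hsf1* was at 0.34 without NCD1 and slightly below 0 without NCD2, NCD3 or HFD2, and *Hsf2* was at 0.14 without NCD3. NCD1 was the highest library for *Hsf1* and the lowest for *Hsf2*. HSF1 is known to be controlled mainly at the protein level.

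*Hspa8*, the constitutive HSC70 that also uncoats clathrin vesicles at synapses, had 3963, 3813 and 3235 CPM on NCD and 3875, 4627 and 2865 CPM on HFD. HFD libraries held both the highest and the lowest value, and the log2 fold change was 0.05 (SE 0.25). Its FPKM was 96.5 to 150.4 times that of *Hspa1a* and *Hspa1b* together in each library, so the constitutive form was in large excess over the inducible forms in both diets. *Hspa12a*, a distant HSP70 relative, had 109, 84.2 and 61.5 CPM on NCD and 61.3, 80.2 and 56.4 CPM on HFD. *Hspa12b*, known from endothelial cells, had 0.783, 1.43 and 1.96 CPM on NCD and 3.85, 1.48 and 1.32 CPM on HFD. It had the highest log2 fold change of all members (0.75, SE 0.58), which came from HFD1, since without that library it was 0.07. Of the 8 cytosolic HSP70 genes 4 had a higher and 4 a lower fitted level on HFD, none at an unadjusted p under 0.05. Of the transcript of *Hspa8*, 28.9% of the 100-base words occur in the predicted gene *Gm26825*.

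None of the HSP110 genes had an unadjusted p under 0.05. *Hsph1* (HSP105) had 598, 438 and 407 CPM on NCD and 441, 531 and 359 CPM on HFD, and *Hspa4l* had 323, 236 and 319 CPM on NCD and 288, 297 and 229 CPM on HFD. *Hspa4* had 63.8, 58.4 and 74.8 CPM on NCD and 67.0, 72.9 and 60.0 CPM on HFD. Each had overlapping diets, and the 3 log2 fold changes ran from -0.12 to 0.02.

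The cytosolic HSP90 pair holds the inducible *Hsp90aa1* (HSP90 alpha) and the constitutive *Hsp90ab1* (HSP90 beta). *Hsp90aa1* had 1852, 2562 and 4170.1 CPM on NCD and 3742, 3071 and 3467 CPM on HFD, a log2 fold change of 0.26 (SE 0.29). That value was 0.64 without NCD3 (edgeR p of 0.0355, adjusted p 0.608) and 0.01 without NCD1. The NCD libraries spread over more than the whole range of HFD, with NCD3 highest and NCD1 lowest of all 6. *Hsp90ab1* had 1833, 2461 and 2269.6 CPM on NCD and 2405, 2400.3 and 2367 CPM on HFD. The HFD libraries were close to each other (SD 20.7 CPM), with NCD1 and NCD3 below them and NCD2 above. The FPKM ratio of alpha to beta was 1.225, 1.179 and 1.824 on NCD and 1.698, 1.584 and 1.559 on HFD, and the diets overlapped (two-sided exact permutation test: p = 0.4). For *Hsp90aa1*, 39.6% of the 100-base words of its transcript occur in the pseudogene *Gm12346*.

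The J-domain proteins of classes A and B other than *Dnajb1* had, where tested, log2 fold changes from -0.21 to 0.07. Their standard errors ran from 0.19 to 0.40. *Dnaja1*, the most abundant of them, had 554, 459 and 571 CPM on NCD and 545, 595 and 438 CPM on HFD. *Dnajb6*, which holds back the aggregation of polyglutamine proteins, had 271, 284 and 291 CPM on NCD and 279, 326 and 242 CPM on HFD. *Dnajb4*, another HSP40, had 143, 105 and 122 CPM on NCD and 111, 130.4 and 90.5 CPM on HFD. The diets overlapped for all 3. Of the 10 genes of this group tested, 2 had a higher and 8 a lower fitted level on HFD, and *Dnajb1* alone had an unadjusted p under 0.05. *Dnajb7* was too scarce to be tested. It had 0.90, 0.81 and 1.05 CPM on NCD and 0.37, 0.59 and 0.38 CPM on HFD, without overlap. Exons of *Dnaja1* overlap *Smu1* on the opposite strand, and 36.3% of the 100-base words of *Dnajb6* occur in other genes.

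Among the class C J-domain proteins outside the organelles are 2 of synaptic vesicles. *Dnajc5* encodes cysteine string protein, which guards SNARE proteins at nerve terminals, and had 324, 305 and 293 CPM on NCD and 297, 302 and 274 CPM on HFD. *Dnajc6* encodes auxilin, which recruits HSC70 to clathrin coats in neurons, and had 378, 306 and 316 CPM on NCD and 286, 298 and 205 CPM on HFD. All HFD libraries were below the NCD libraries for *Dnajc6*, with a log2 fold change of -0.34 (SE 0.22) and an edgeR p of 0.153. *Dnajc8*, a spliceosome component, had 148, 202 and 248 CPM on NCD and 209, 210.2 and 212 CPM on HFD, where the HFD libraries were nearly identical. *Dnajc27* had 129.98, 97.1 and 70.0 CPM on NCD and 74.1, 97.9 and 68.3 CPM on HFD (log2 fold change -0.31, SE 0.25). Of 12 tested, 8 had a higher and 4 a lower fitted level on HFD, and none had an unadjusted p under 0.05.

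In mitochondria HSP60 (*Hspd1*) and HSP10 (*Hspe1*) form 1 folding chamber, and mortalin (*Hspa9*) pulls proteins through the inner membrane. *Hspd1* had 316, 251 and 239 CPM on NCD and 268, 309.7 and 203 CPM on HFD. *Hspe1* had 171, 239.5 and 386 CPM on NCD and 324, 320.2 and 296 CPM on HFD. *Hspa9* had 256, 211 and 198 CPM on NCD and 192, 217 and 138 CPM on HFD. The diets overlapped for all 3, with log2 fold changes of -0.04 (SE 0.23), 0.24 (SE 0.27) and -0.28 (SE 0.23). The *Hspe1* value was 0.61 without NCD3 (edgeR p of 0.0249, adjusted p 0.604) and -0.0089 without NCD1. The order of the NCD libraries was opposite for *Hspd1* and *Hspe1*. The FPKM ratio of *Hspe1* to *Hspd1* was 1.65, 2.94 and 4.91 on NCD and 3.74, 3.09 and 4.45 on HFD (exact permutation test, p = 0.6). Exons of the 2 genes overlap on opposite strands in GENCODE M21, and 25.8% of the 100-base words of *Hspd1* occur in the pseudogene *Hspd1-ps3*. Of the 10 mitochondrial members 6 had a higher and 4 a lower fitted level, none at an unadjusted p under 0.05, and *Dnajc28* had all HFD libraries above the NCD libraries (25.2, 23.3 and 22.4 CPM against 26.0, 29.4 and 29.7 CPM).

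The ER members include BiP (*Hspa5*), GRP94 (*Hsp90b1*) and the J-domain proteins that serve BiP. *Hspa5* had 1011, 682 and 686 CPM on NCD and 885, 1071 and 627 CPM on HFD. *Hsp90b1* had 680.4, 648 and 785 CPM on NCD and 752, 755 and 777 CPM on HFD. The diets overlapped for both, with log2 fold changes of 0.12 (SE 0.26) and 0.11 (SE 0.21), and *Dnajc3*, the third member with an ER stress element, had 0.12 (SE 0.18). *Dnajb12*, a J-domain protein of the ER membrane that helps degrade misfolded membrane proteins, had 21.1, 20.9 and 22.6 CPM on NCD and 18.4, 18.1 and 12.6 CPM on HFD. Every HFD library was below every NCD library, but the edgeR p was 0.123 (log2 fold change -0.39, SE 0.23). *Dnajc25* had 6.20, 8.04 and 7.52 CPM on NCD and 10.4, 6.90 and 12.8 CPM on HFD, and *Dnajc1* had 24.7, 29.9 and 49.8 CPM on NCD and 40.1, 33.1 and 63.8 CPM on HFD. Their diets overlapped, with log2 fold changes of 0.46 (SE 0.31) and 0.39 (SE 0.30). These values were 0.26 and 0.08 without HFD3, and 0.68 and 0.58 without HFD2. Of the 14 ER members 8 had a higher and 6 a lower fitted level, none at an unadjusted p under 0.05. The genes taken in by their prefix, *Hspbp1*, *Hspbap1* and *Hspb11*, ran from -0.06 to 0.05.

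A list of 24 typical HSF1 response genes held 15 members and 9 others. In it 14 genes had a higher and 10 a lower fitted level, the median log2 fold change was 0.04, and *Dnajb1* and *Hspb1* were the 2 with an unadjusted p under 0.05, against 2.30% of all genes. The 9 others ran from -0.05 (*Stip1*, the adaptor between HSP70 and HSP90) to 0.23 (*Ahsa2*). *Stip1* had 309, 272 and 254 CPM on NCD and 289, 314 and 202 CPM on HFD. *Bag3*, a strongly inducible nucleotide exchange factor, had 15.7, 9.87 and 13.1 CPM on NCD and 17.2, 8.67 and 14.1 CPM on HFD, with overlapping diets.

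*Fkbp4*, the immunophilin FKBP52 of steroid receptor complexes, had 346, 287 and 266 CPM on NCD and 310.5, 359 and 229 CPM on HFD. *Ahsa1*, which stimulates the ATP step of HSP90, had 134, 140.4 and 135 CPM on NCD and 167, 167 and 129.6 CPM on HFD, and *Ahsa2* had 75.1, 56.0 and 97.8 CPM on NCD and 90.6, 80.6 and 97.6 CPM on HFD. All 3 had overlapping diets. *Chordc1* had 204, 124 and 221 CPM on NCD and 224, 213 and 171 CPM on HFD, *Cacybp* had 311, 301 and 335 CPM on NCD and 333, 399 and 250.05 CPM on HFD, and *St13*, the HSP70 partner HIP, had 268, 273 and 304 CPM on NCD and 277, 302 and 242 CPM on HFD. These 3 overlapped between the diets as well.

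Among 31 genes listed as co-chaperones of HSP70 and HSP90, 17 had a higher and 14 a lower fitted level. Their median was 0.02, and none had an unadjusted p under 0.05. *Fkbp5*, a glucocorticoid-induced immunophilin, was the extreme of that list with a log2 fold change of 0.64 (SE 0.31, edgeR p of 0.0574). Its level was 13.8, 15.3 and 23.6 CPM on NCD and 25.0, 18.2 and 38.9 CPM on HFD. *Hsbp1*, which encodes a binding protein of HSF1 rather than such a co-chaperone, was the most abundant of the list by FPKM (368). Among 15 organelle chaperones and ER or mitochondrial folding factors, *Hyou1*, the large HSP70 relative of the ER, was the only 1 with an unadjusted p under 0.05. It had 31.3, 38.0 and 59.4 CPM on NCD and 33.2, 26.5 and 24.3 CPM on HFD (log2 fold change -0.61, SE 0.26, edgeR p of 0.0369, adjusted p 0.999). Its diets overlapped through HFD1. The 14 genes of the CCT chaperonin and prefoldin, which fold actin and tubulin, had a median of 0.09, 11 of them with a higher fitted level and none with an unadjusted p under 0.05.

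Many genes differed with the size of the library, and the shares of members were not far from those of all genes. In a fit with the diet and the log2 total count as terms, added after the data had been seen, 27 of the 68 members (39.7%) had a total count term with an unadjusted p under 0.05, against 31.6% of all genes. With adjustment over all genes there were 13 (19.1%), against 17.5%. Without each library in turn, 19 to 24 members (27.9% to 35.3%) had a term under 0.05, against 19.7% to 33.3% of all genes. Both shares were lowest without NCD3. Library size differed within each diet and was not set by the design, and what lies behind it was not tested.

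The direction of that term was not the same for all members. It was positive for 15 of the 27 and negative for 12. Among all genes with an unadjusted p under 0.05 for that term, it was positive for 2178 and negative for 2308. Per doubling of the total count, the log2 level of *Dnaja3*, a mitochondrial J-domain protein, was higher by 0.69 (SE 0.16), and its CPM ran from 52.5 in the smallest library (HFD3) to 102 in the largest (NCD1) and 104 in HFD2. The slope was 0.59 (SE 0.18) for *Hspa5*, 0.50 (SE 0.17) for *Hsph1* and 0.44 (SE 0.16) for *Hspd1*. It was -0.81 (SE 0.17) for *Dnajb14* of the ER membrane, whose CPM was 170 in NCD1 and 391 in NCD3. The slope was -0.86 (SE 0.17) for *Dnajc1*, -0.63 (SE 0.23) for *Hsp90aa1*, -0.52 (SE 0.21) for *Hspe1* and -1.25 (SE 0.41) for *Hspa1b*. *Dnajb1* and *Hspb1* had slopes of 0.10 (SE 0.17) and -0.39 (SE 0.20), neither under 0.05.

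**Figure D4:**
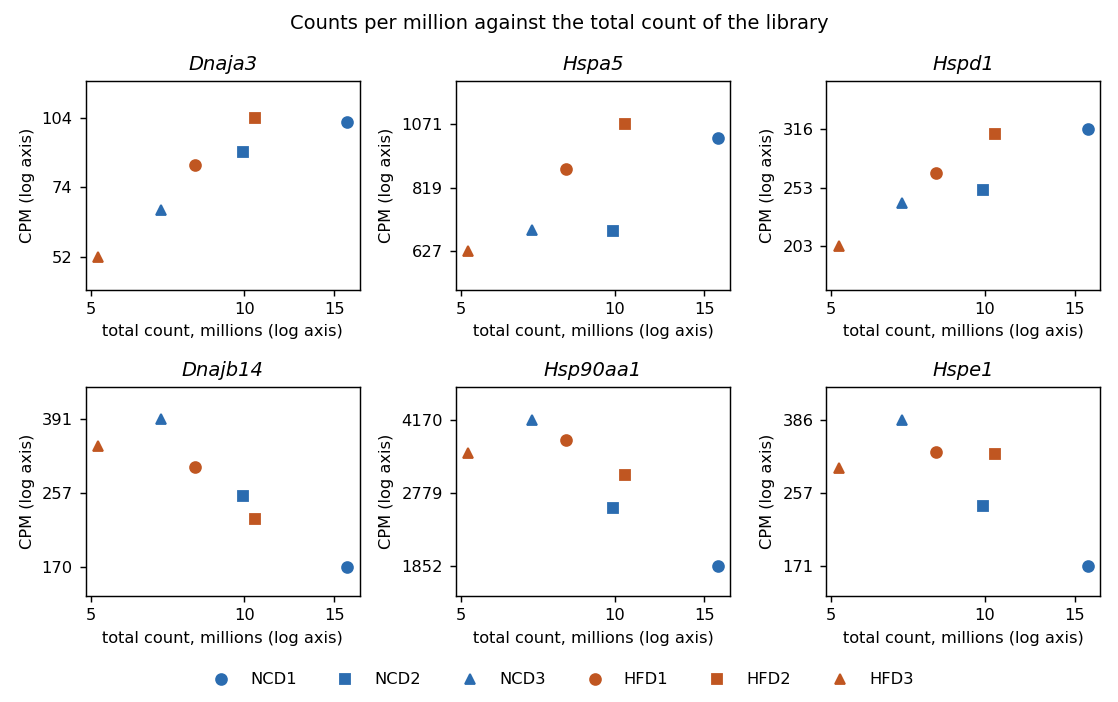
CPM against the total count of the library, both on log axes, for Dnaja3, Hspa5 and Hspd1 (positive slope) and Dnajb14, Hsp90aa1 and Hspe1 (negative slope), genes chosen after their values had been seen. Each point is a library, from HFD3 with 5171381 counts to NCD1 with 15925648. The points scatter around these slopes: Hspa5 was at 682 CPM in NCD2 but 1071 in HFD2 at a similar total, and Hspe1 was at 296 to 324 CPM in all 3 HFD libraries.

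The length of the transcript, taken from the ratio of the deposited counts and FPKM, differed between members with positive and negative slopes. All 6 members tested with an implied length under 1000 bases had a negative slope. So did 10 of the 19 from 1000 to 2000 bases and 10 of the 26 from 2000 to 3000. Of the 17 over 3000 bases, 2 had one. The shares of all genes by length were not computed. Across the 68 members Spearman's rho between slope and length was 0.43, and across all 14188 genes it was 0.05. Genes are not independent replicates, all slopes share the same 6 libraries, and the relation is given as a description. With the total count in the fit, *Dnajb1* had a log2 fold change of -0.68 (edgeR p of 0.000914, adjusted p 0.405) and *Hspb1* 0.48 (edgeR p of 0.0268, adjusted p 0.9998). In the same fit *Dnajc1* went to 0.01, *Dnajc27* to -0.0033 and *Hspa12a* to -0.08, each closer to 0 than without the term, and *Hsf1* went to 0.30. *Dnajb5* was the other member with an unadjusted p under 0.05 in that fit.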

How the data were processed

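RNA of laser-cut ARC tissue was enriched with oligo(dT) and sequenced, with 3 samples per diet. Per the study's methods, the authors screened the reads against ribosomal sequences (bowtie2), mapped them with HISAT2 and obtained read counts and FPKM (fragments scaled to transcript length and mapped reads) per gene with StringTie and RSEM. The submitters' processing notes name the build mm10, and the versions, the annotation release and the use of strand are not given in the sources used here. The deposited read counts are whole numbers that are not normalised, and the deposited FPKM values are scaled by length and depth. The sample titles give C and H with a number, which were read as NCD and HFD, since the deposited group means equal the means of these FPKM columns in 22322 of 22322 genes (tolerance 1e-06). The 3 columns of the authors' own comparison hold fold changes, p-values and FDR and were not used.

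Identifiers were matched to GENCODE M21 (GRCm38), which held 22267 of them, and 55 were not matched. The counts of 14188 genes that passed edgeR's filterByExpr were scaled by TMM (factors 0.967 to 1.04) and compared with edgeR's quasi-likelihood test with diet as the only term. The biological coefficient of variation was 0.244. CPM is the count scaled to the TMM-scaled total of the tested genes, and log2 CPM used a prior count of 2. P-values were adjusted over all 14188 genes and measure only the spread between these samples, which may be technical, since nothing states that they are separate animals. Any 2 libraries differed by more than sampling noise (chi-square of at least 10.8 per gene). The limit of 3 counts covers counting error only, and no batch is given in the labels. RefSeq promoters were searched for motifs, and 100-base words of each member's longest transcript were searched in all other GENCODE transcripts. Protein sequences were not analysed here.

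The genes named with values in every sample are the members with an unadjusted p under 0.05, the 10 with the highest mean FPKM, the HSF1 response list, *Hsf1*, *Hsf2*, *Hspa5*, *Hsp90b1*, *Hspa9*, *Dnajc5*, *Dnajc6* and the 5 highest and 5 lowest log2 fold changes. Other genes are extremes or the most abundant of their group, and *Dnajc28* and the genes of the total count plot were chosen after their values were seen. The members, lists and rules were chosen with earlier results of these data known, and *Dnajb1* and *Hspb1* are no independent support of them. Fits were tested on simulated data whose changed genes had larger log2 fold changes than any member here. That test therefore does not cover differences of the size seen in the members. Alternatives were RLE size factors, no TMM, DESeq2, other filters, limma with trend on log2(FPKM + 1) and log2(FPKM + 0.1) above a mean FPKM of 0.5, a replicate block, the log2 total count as covariate and each library left out in turn. Versions were edgeR 4.0.16, DESeq2 1.42.0 and limma 3.58.1 under R 4.3.3, and matplotlib 3.10.9 under Python 3.11.15.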

Additional observations from a re-analysis of the deposited data

How the results depend on the processing

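No member had an adjusted p under 0.05 in the main fit or in any of the 15 alternatives. *Dnajb1* kept its direction and an unadjusted p under 0.05 in all 15, with log2 fold changes from -0.80 to -0.59, p from 0.000914 to 0.0151 and adjusted p from 0.405 to 0.9999. *Hspb1* kept its direction in all 15 and its p under 0.05 in 12, with log2 fold changes from 0.47 to 0.93, and lost it without NCD1, NCD2 or HFD1. The number of members with an unadjusted p under 0.05 was 2 or 3 in the alternatives that used every library. It was 1 to 8 when a library was left out (1.45% to 11.8%, against 1.36% to 8.13% of all genes). The 8 (11.8% of the members tested) were reached without NCD3, where the share of all genes also rose, from 2.30% to 8.13%, and where *Hspa12a* (-0.55), *Dnajc1* (0.74), *Hsp90aa1* (0.64), *Hspe1* (0.61), *Hspa1b* (1.01) and *Dnajc21*, which is outside the genes named by rule, also had a p under 0.05. The median log2 fold change of the members stayed between -0.04 and 0.07.

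Over all genes, 326 had an unadjusted p under 0.05, 589 with the replicate block and 197 to 1178 when a library was left out (the most without NCD3). With adjustment there were 8 genes in the main fit, 15 with every gene of at least 1 count, 15 with the total count as covariate, 19 with DESeq2, 5 with limma on log2(FPKM + 1), 5 with limma on log2(FPKM + 0.1) and 1 to 16 when a library was left out. The total count term had 2860 (without NCD3) to 4756 genes under 0.05 when a library was left out, against 4486. The causes were not tested. The replicate numbers share only a number: deviations of same-numbered samples correlated at -0.0116, 0.113 and 0.369. With the replicate block *Dnajb1* and *Hspb1* were again the 2 members with a p under 0.05, no member passed adjustment, and 17 genes did. Depth limits scarce members such as *Hspb3*, *Hspa12b* and *Hspa1b*, whose standard errors were 0.66, 0.58 and 0.50.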
